A study of Rattus norvegicus with 6 samples.

Results

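The genes examined here build and serve the centrosome and the primary cilium: those of the rat count table whose symbol begins with Cep, Ift or Bbs followed by a number, leaving out symbols that end in os. There are 66 such genes among 21026 symbols in the table, 39 named Cep, 19 named Ift and 8 named Bbs. RNA sequencing of polyadenylated RNA compared bone marrow mesenchymal stem cells of Rattus norvegicus labelled young with the same cells labelled aged, 3 libraries each. These are the adherent stromal cells of the marrow, able to form bone, fat and cartilage. No genotype, agent, age in months, sex or passage is named for either group. The labels call the libraries of each group biological replicates, but whether each came from its own animal is not given. The p-values therefore reflect the scatter among these 6 libraries, and how much of it lies between animals is not known. Membership was decided by symbol, but the families were chosen by their young and aged counts in this same comparison, so the values below describe the genes, and their counts are not evidence for a difference between the families and other genes.

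The centrosome is the main microtubule-organising centre of an animal cell: a pair of centrioles in a protein scaffold, duplicated once per cell cycle to form the poles of the spindle. In a resting cell the older centriole docks at the surface through its distal appendages and grows a primary cilium, an antenna that carries Hedgehog and other receptors and is taken down again before division. Many Cep proteins make up the centriole, its appendages and its satellites. Ift proteins form the trains of intraflagellar transport, in which IFT-B with kinesin-2 carries cargo to the tip and IFT-A with dynein-2 brings it back. Bbs1, Bbs2, Bbs4, Bbs5, Bbs7 and Bbs9 belong to the BBSome, a coat that moves membrane proteins out of the cilium, and Bbs10 and Bbs12 are chaperonin-like proteins that help assemble it. Mesenchymal stromal cells carry a primary cilium.

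Promoters of many ciliary genes hold an X-box, a palindrome of a pair of arms bound by RFX transcription factors, so the promoter letters are shown before the expression values. RefSeq promoter windows of the rat assembly GRCr8, 300 bases each, from 250 before to 50 after the start site, were found for 57 of the 66 genes. The X-box arm, GTTGCC or its reverse complement GGCAAC on either strand, was present in 16 of the 57 windows (28.1%), against 12.2% of all 33469 windows in the table and 12.4% of the 11183 windows of tested genes. By family it was in 8 of 35 Cep windows (22.9%), 5 of 15 Ift windows (33.3%) and 3 of 7 Bbs windows (42.9%). A complete X-box, which contains the arm in some of its forms, was found in 2 of the 57 windows (3.51%), those of Cep112 and Cep152, against 1.28% of tested genes and 1.6% of all windows. The stretches below are examples chosen after the matches were seen, to show the only window with more than one complete X-box and then windows of each family with an arm, that of Cep89 being from a gene that was lower in aged cells. Each reads 5′ to 3′ on the strand of its gene, with the matched letters in capitals.
Cep112, complete X-box from 164 bases before the start site (chr10:93865515-93865568, + strand): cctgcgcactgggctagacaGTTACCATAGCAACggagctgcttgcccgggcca
Cep112, complete X-box from 9 bases before the start site (chr10:93865670-93865723, + strand): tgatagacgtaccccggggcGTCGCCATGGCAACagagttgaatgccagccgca
Cep57, arm from 30 bases before the start site (chr8:18970849-18970894, - strand): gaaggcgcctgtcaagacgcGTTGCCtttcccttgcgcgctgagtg
Cep89, arm from 85 bases before the start site (chr1:97195032-97195077, + strand): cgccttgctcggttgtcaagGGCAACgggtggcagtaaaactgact
Ift81, arm from 11 bases before the start site (chr12:39618591-39618636, + strand): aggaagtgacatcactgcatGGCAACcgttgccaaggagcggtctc
Ift88, arm from 34 bases before the start site (chr15:35688933-35688978, + strand): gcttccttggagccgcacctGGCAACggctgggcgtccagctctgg
Bbs5, arm from 39 bases before the start site (chr3:74818581-74818626, + strand): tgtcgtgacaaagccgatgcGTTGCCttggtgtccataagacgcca
In Ift81 another arm on the opposite strand begins 4 bases before the start site and can be read in lower case within the stretch shown. A match describes the letters and is not a measured binding site. Of the 16 genes with an arm 10 were higher in aged cells, 3 lower and 3 not called, with a median log2 fold change of 0.52. Of the 41 genes without one, 25 were higher, with a median of 0.81. Over all tested genes 606 of 1392 with an arm and 4340 of 9791 without one were higher, with medians of 0.015 and 0.020.

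Values below are CPM, counts relative to the size of the library, scaled between libraries by TMM, and log2 fold changes are aged over young with the standard error (SE) of the fit. A gene is called, and said to rise or fall, where edgeR's quasi-likelihood test gave a Benjamini-Hochberg adjusted p under 0.05 across all genes. Library totals ranged from 34638874 to 42479626 counts, and a gene at 0 counts could have been present at up to 3 counts, or 0.0688 to 0.0840 CPM, which covers counting error only. In all, 12339 of 14273 tested genes were called (86.4%), 6375 higher and 5964 lower. Scaling by library size alone shifted all log2 changes by a median of 0.34 and turned this split into 7704 higher and 4654 lower, so changes are stated relative to the TMM scaling. Stromal markers were all detected, with sums of 41851 to 42241 CPM in young and 23874 to 24108 in aged libraries over 11 genes, of which 8 fell, 2 rose and 1 was not called. The 8 macrophage markers summed to 83.8 to 84.1 CPM in young and 42.9 to 44.1 in aged libraries, C1qa was at 0 throughout and Ptprc had 1 count in all. Of the 3 macrophage markers tested 2 fell and 1 rose: Cd14 went from 80.7 ± 0.772 to 20.99 ± 0.600 CPM, and Csf1r rose 67.5-fold, from 0.321 ± 0.182 to 21.8 ± 0.552 CPM. The 5 endothelial markers summed to at most 0.111 CPM in young and 0.619 in aged libraries. Markers of multiciliated epithelium, which uses many of the same genes for motile cilia, summed to 1.74 to 2.14 CPM in young and 4.53 to 5.43 in aged libraries over 7 genes, of which 3 rose (Ccno and Foxj1 passed the filter on low counts through the aged libraries only), Dnah5 was at 0 in young and Mcidas at 0 in aged libraries. The 10 markers of dividing cells all fell, from sums of 560.8 to 590.2 CPM to sums of 42.6 to 44.7; under library-size scaling 8 of them were called lower and Mki67 stood at a log2 change of 0.051. Mki67 was also not called without young replicate 3 (edgeR adjusted p = 0.054) or aged replicate 2 (0.050). The part of these markers in the changes below was not tested. In bulk RNA, fewer cells of a type and less RNA per cell cannot be told apart.

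All 66 genes passed the filter on low counts, Cep126 and Ift70a2 through the aged libraries only, so those 2 could not have passed without a difference. In total 41 rose, 16 fell and 9 were not called, against backgrounds of 44.7% of tested genes higher and 41.8% lower. The Cep genes were mostly higher in aged cells: 29 rose, 7 fell and 3 were not called, with a median log2 change of 1.33 and a range from -2.65 to 7.35. The Ift genes were split, with 8 higher, 8 lower and 3 not called, the Ift70 copies Ift70a1, Ift70a2 and Ift70b being among the 8 higher. Under library-size scaling they numbered 10 higher and 7 lower, and their median of -0.15 became 0.18. Of the 8 Bbs genes 4 rose, 1 fell and 3 were not called, with a median of 0.31, and under library-size scaling 6 were called higher and 1 lower. The median over all tested genes was 0.052. A rise of at least 2-fold was seen in 22 Cep, 4 Ift and 3 Bbs genes (29.4% of tested genes), and one of at least 8-fold in 9 Cep genes and no Ift or Bbs gene (9.37% of tested genes). Falls of at least 2-fold numbered 4, 5 and 1 (21% of tested genes). CPM of the groups did not overlap for 35 Cep, 18 Ift and 5 Bbs genes (87.5% of tested genes). Summed over the family, Cep transcripts went from 546 ± 3.40 to 1059 ± 14.5 CPM (SD, n = 3 each), Ift transcripts from 368 ± 0.794 to 299.8 ± 3.12 and Bbs transcripts from 72.3 ± 3.504 to 86.1 ± 0.283. The differences between the families were not tested.

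**Figure D1:**
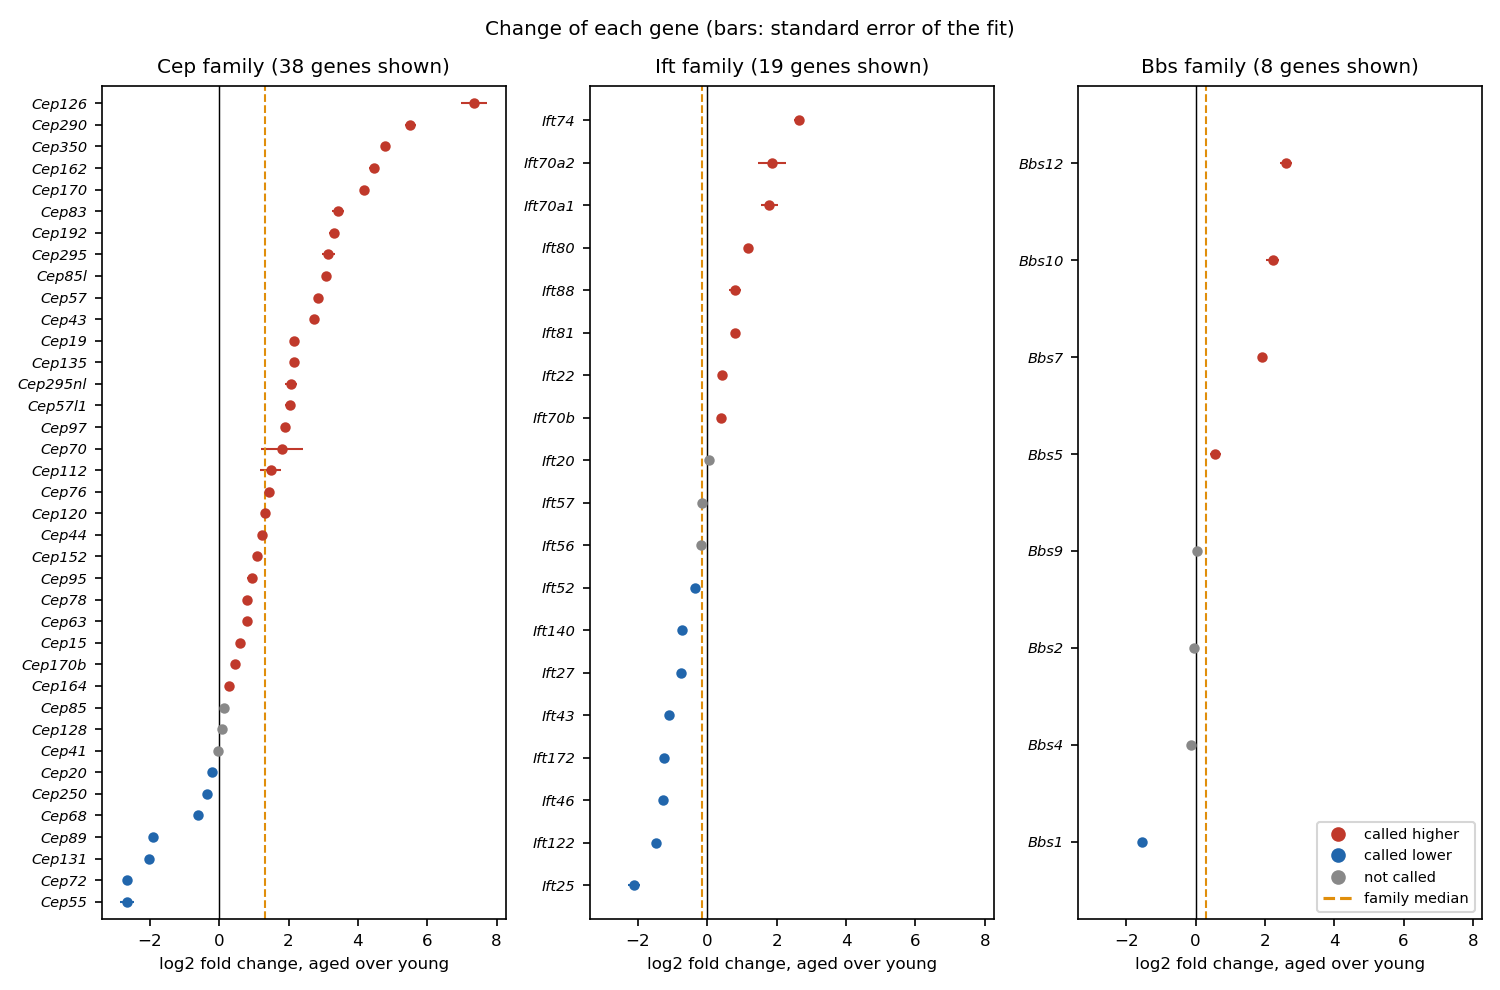
Log2 fold change of each gene except 1 Cep gene, which is not shown, aged over young (x axis), by family, with bars for the standard error of the fit; red genes were called higher, blue lower and grey not called, and the dashed line is the family median. Cep genes lie mostly to the right of 0 up to 7.35 for Cep126, whereas Ift genes spread on both sides, from -2.12 for Ift25 to 2.65 for Ift74.

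Of the 11 Cep genes listed for centriole duplication and elongation, 10 rose, 0 fell and Cep85 was not called, with a median log2 change of 1.43. Over all tested genes 44.7% rose and 41.8% fell. Duplication genes with other symbols were divided, with 9 of 16 higher and 6 lower and a median of 0.44. Cep192 recruits the duplication kinase Plk4 and pericentriolar material to the centriole. Plk4 itself fell 1.36-fold, from 10.3 ± 0.423 to 7.59 ± 0.745 CPM, but was not called under library-size scaling (log2 -0.11). The young libraries held 2.72, 3.82 and 2.43 CPM of Cep192 and the aged libraries 28.3, 30.8 and 29.8, a 9.85-fold rise (log2 3.30, SE 0.12). Cep152, the other Plk4 receptor, rose 2.14-fold from 4.93 ± 0.391 to 10.6 ± 0.399 CPM, and Cep63, which holds Cep152 at the centriole, rose 1.74-fold. Cep135, a link between cartwheel and microtubule wall, rose 4.47-fold. Cep295 and Cep120, which lengthen and stabilise new centrioles, rose 8.84-fold and 2.52-fold. Cep97, which caps the growing end, rose 3.75-fold, and its partner Ccp110 rose 23.9-fold, from 0.800 ± 0.295 to 19.3 ± 0.835 CPM. The remaining members of this group that rose were Cep85l (8.51-fold), Cep76 (2.70-fold) and Cep44 (2.34-fold). Cep85 measured 31.2, 27.96 and 30.3 CPM in young and 30.8, 33.8 and 32.9 in aged libraries (edgeR adjusted p = 0.091), and its groups overlapped. Cep85 was called higher under library-size scaling (log2 0.46), with a minimum count of 50 (edgeR adjusted p = 0.025) and without young replicate 1 (edgeR adjusted p = 0.049). Taf1d overlaps Cep295 in RefSeq, Pln overlaps Cep85l, Anapc13 overlaps Cep63, and an uncharacterised protein-coding gene overlaps Cep152. Overlap here means that whole gene spans overlap, without regard to exons or strand. The strand setting of the counting is not given, and whether overlapping genes share reads was not tested.

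The appendages of the older centriole showed changes in both directions. Cep83 starts the assembly of the distal appendages, which anchor the centriole to the membrane. It was at 1.19, 2.51 and 1.37 CPM in young and 17.7, 19.9 and 17.1 in aged libraries, a 10.7-fold rise (log2 3.42, SE 0.18). Cep83os, named as its antisense transcript and not one of the 66, rose 10.3-fold, from 0.347 ± 0.0894 to 3.60 ± 0.590 CPM. It was not among the RefSeq genes found to overlap Cep83. Whether the pair share reads was not tested, and the strand setting is not given. Cep89, another distal appendage protein, held 36.0, 37.4 and 38.2 CPM in young and 9.52, 10.2 and 9.77 in aged libraries, a 3.78-fold fall (log2 -1.92, SE 0.07). Cep164, which brings in the kinase Ttbk2, rose only 1.22-fold, from 54.6 ± 2.96 to 66.9 ± 1.33 CPM. So 2 distal appendage genes rose, Cep83 steeply and Cep164 slightly, and 1 fell. Of 5 partners at the same structure with other symbols, 4 rose and 1 fell, against 44.7% of tested genes higher and 41.8% lower. Ankrd26, Sclt1 and Ttbk2 rose 19.3-fold, 15.6-fold and 10.8-fold, and Fbf1 fell 3.32-fold from 47.9 ± 2.76 to 14.4 ± 1.56 CPM. On the subdistal appendages, which hold microtubules, Cep170 went from 6.57, 8.49 and 8.31 CPM to 140.5, 140.9 and 138 CPM, a 17.9-fold rise (log2 4.16, SE 0.07). Every aged library was far above every young one. Cep112 rose 2.79-fold from 0.834 ± 0.313 to 2.34 ± 0.333 CPM, and Cep128 was not called at 7.47 ± 0.599 and 7.89 ± 0.388 CPM (edgeR adjusted p = 0.51), and was called higher under library-size scaling (log2 0.42).

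Genes of the centriolar satellites and of the ciliary transition zone, the gate at the base of the cilium, moved in both directions. Cep290, a transition zone protein also found in satellites, and Cep162 rose, and the satellite proteins Cep131 and Cep72 fell. Cep290 links the ciliary membrane to the microtubules at the gate. It had 0.416, 0.396 and 0.728 CPM in young libraries and 23.8, 24.1 and 22.3 in aged ones, a 45.5-fold rise (log2 5.51, SE 0.16). Those young values are 15, 15 and 26 counts, and Rlig1 overlaps the gene in RefSeq. Cep162, which tethers transition zone proteins to the axoneme, went from 0.831, 0.659 and 0.924 CPM to 17.6, 17.9 and 17.4, a 21.9-fold rise (log2 4.45, SE 0.14). In neither gene did the groups come near each other. Cep131 fell from 30.5, 26.0 and 27.2 CPM to 6.85, 6.31 and 7.41, which is 4.07-fold (log2 -2.03, SE 0.09). Cep72 fell from 10.9, 11.4 and 10.7 CPM to 2.06, 1.63 and 1.59, which is 6.26-fold (log2 -2.65, SE 0.14). Both satellite genes were low in all 3 aged libraries. Not every satellite gene fell: Pcm1, the satellite scaffold itself, rose 27.6-fold from 2.71 ± 0.634 to 74.9 ± 3.10 CPM, and Ofd1 rose 14.2-fold. Of 9 tested genes of satellites and scaffold with other symbols, 7 rose and 2 fell, Odf2 among the latter at 2.25-fold. Among 19 transition zone genes with other symbols the median log2 change was -0.20, and 7 were called higher and 9 lower. Over all tested genes 44.7% were called higher and 41.8% lower. Rpgrip1l and Tmem67 rose 6.12-fold and 5.33-fold, and B9d1 and Mks1 fell 4.21-fold and 4.01-fold.

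Cep55 fell about as much as Cep72, the difference in log2 change being smaller than either SE. It is a midbody protein that recruits the abscission machinery at the end of cell division. Its young libraries held 5.98, 9.81 and 7.25 CPM and its aged ones 1.28, 1.123 and 1.26, a 6.29-fold fall (log2 -2.65, SE 0.20). The young libraries varied most, with replicate 2 the highest, and none came near the aged values. The fall stood beside that of the dividing-cell markers given above. Mitotic kinases that promote cilium disassembly or centrosome separation fell with it: Plk1 fell 40.7-fold, Nek2 fell 17.5-fold and Aurka fell 6.98-fold. Of 8 genes of cilium disassembly 6 fell and 2 rose, against 41.8% of tested genes lower and 44.7% higher. The linker proteins that hold the paired centrioles together until mitosis were modestly lower. Cep68 went from 49.7, 49.3 and 51.2 CPM to 32.7, 35.2 and 30.9 (1.52-fold lower, log2 -0.60, SE 0.06), and Cep250 from 30.2 ± 2.97 to 23.9 ± 1.84 (1.26-fold lower), although Cep250 stood at a log2 change of -0.00080 and was not called under library-size scaling.

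Cep350 and Cep43 recruit Cep19 to the older centriole, where ciliary transport begins. These 3 genes were brought together after their values were seen, so that all of them rose follows from the choice. Cep350 measured 2.80, 3.22 and 2.63 CPM in young and 81.9, 80.2 and 75.1 in aged libraries, a 27.4-fold rise (log2 4.77, SE 0.08). Cep43 rose 6.66-fold, from 7.80 ± 0.615 to 51.9 ± 1.69 CPM, and Cep19 rose 4.47-fold, from 6.68 ± 1.06 to 30.0 ± 0.799 CPM. Pigx overlaps Cep19 in RefSeq. The largest rise of all 66 genes belonged to Cep126, a centrosomal protein needed for microtubule organisation and cilium formation. It had 1 count in each young library, 0.0277, 0.0264 and 0.0280 CPM, and 5.64, 4.38 and 4.97 CPM in the aged ones. The TMM-scaled ratio of 618 aged to 3 young counts, pooled over libraries, was 182.4. Its 95% exact binomial interval ran from 62.13 to 887, which covers counting error only. The edgeR fit, used for the other genes, gave 163.6-fold (log2 7.35, SE 0.38). Cep126 passed the filter on low counts through the aged libraries only.

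Of the remaining centrosomal Cep genes, Cep41 was not called, Cep20 fell and the others rose. Cep57, a component of the scaffold around the centriole, rose 7.20-fold from 2.53 ± 0.294 to 18.3 ± 0.814 CPM, and its relative Cep57l1 rose 4.10-fold. Rises under 2-fold were found among others for Cep95 (1.91-fold), Cep78 (1.76-fold), Cep15 (1.53-fold) and Cep170b (1.38-fold). Cep295nl rose 4.21-fold, but lies in the same place as Timp2 in RefSeq. Ddx5 likewise overlaps Cep95. Cep41, needed for tubulin glutamylation in the cilium, was closest to 0: 7.34, 8.65 and 7.05 CPM in young against 7.63, 6.88 and 8.10 in aged libraries (log2 -0.030, SE 0.12, edgeR adjusted p = 0.82). Its groups overlapped, and it was called higher under library-size scaling (log2 0.31, edgeR adjusted p = 0.028). Cep20 fell 1.16-fold (27.6 ± 0.840 to 23.7 ± 2.10 CPM), but stood at a log2 change of 0.12 under library-size scaling and was not called without aged replicate 3 (edgeR adjusted p = 0.088). Cep70 was uneven within both groups, with 0.139, 0.897 and 0.112 CPM in young and 0.484, 1.88 and 1.77 in aged libraries. Young replicate 2 thus lay above aged replicate 1. Its rise (log2 1.82, SE 0.61) was called at edgeR adjusted p = 0.010, and no longer without aged replicate 2 (adjusted p = 0.060) or aged replicate 3 (adjusted p = 0.053). Without young replicate 2 the log2 change of Cep70 was 3.44, and over all alternatives it ran from 1.40 to 3.44.

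**Figure D2:**
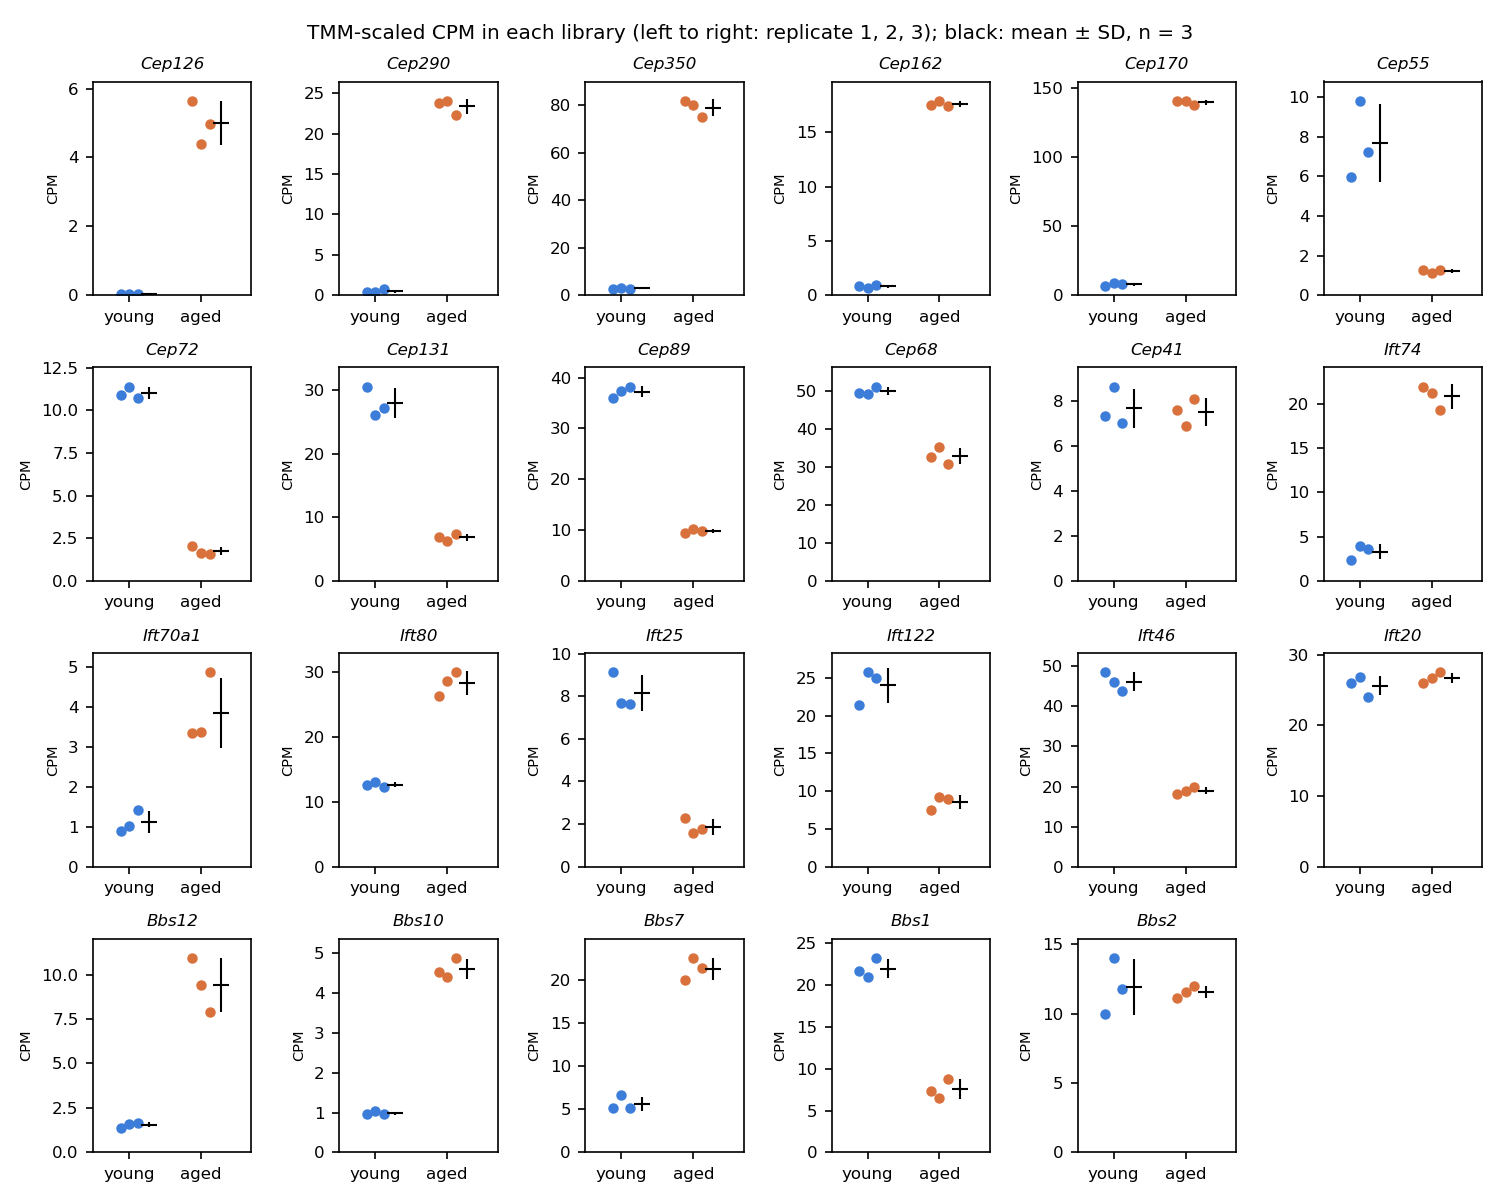
TMM-scaled CPM (y axis, from 0, a separate scale for each gene) in the 3 young and 3 aged libraries for the genes with the largest changes and the smallest change of each family; black marks are the mean ± SD of 3 libraries. The groups are apart in every panel except those of Cep41, Ift20 and Bbs2, the genes closest to 0.

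In intraflagellar transport the subunits of IFT-A, the retrograde complex, divided by gene. The 3 IFT-A genes with Ift symbols all fell, and the 3 with other symbols all rose, where 41.8% of all tested genes fell and 44.7% rose. Ift122, part of the IFT-A core, went from 21.4, 25.7 and 24.9 CPM to 7.56, 9.17 and 8.997, a 2.80-fold fall (log2 -1.49, SE 0.10). Ift43 fell 2.15-fold, from 19.3 ± 2.19 to 8.96 ± 1.01 CPM, and Ift140 fell 1.66-fold, from 47.9, 46.7 and 45.4 CPM to 28.5, 28.8 and 27.2. Their partner subunits Wdr19, Ttc21b and Wdr35 rose 3.97-fold, 2.30-fold and 1.68-fold. Wdr19 went from 7.42 ± 0.863 to 29.5 ± 1.07 CPM. Over all 6 subunits the median log2 change was 0.0092. Tmem204 overlaps Ift140 in RefSeq.

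The IFT-B core carries tubulin and other cargo outward. Of its 12 genes 7 rose, 4 fell and 1 was not called, against 44.7% of tested genes higher and 41.8% lower. Among the 7 rises are the Ift70 copies Ift70a1, Ift70a2 and Ift70b, of which Ift70a2 passed the filter through the aged libraries only. Ift74 and Ift81 form the module that binds tubulin. Ift74 had 2.35, 3.98 and 3.61 CPM in young and 21.9, 21.3 and 19.3 in aged libraries, a 6.27-fold rise (log2 2.65, SE 0.14), and Ift81 rose 1.72-fold from 10.6 ± 1.84 to 18.2 ± 1.01 CPM. Ift22, a small GTPase bound to that pair, rose 1.33-fold. Ift25 and Ift27, a dimer dispensable for building the cilium but needed for export of Hedgehog components and of the BBSome, fell together. Ift25 went from 9.12, 7.68 and 7.64 CPM to 2.30, 1.56 and 1.77, a 4.34-fold fall (log2 -2.12, SE 0.17), and Ift27 fell 1.68-fold from 24.9 ± 1.34 to 14.8 ± 0.269 CPM. Lrrc42 overlaps Ift25.

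Ift46, Ift52 and Ift88 make up the middle of the core. Ift46 went from 48.5, 46.2 and 43.8 CPM to 18.2, 18.8 and 19.9, a 2.44-fold fall (log2 -1.28, SE 0.07), and Arcn1 overlaps it. All 3 aged libraries lay well under the young ones. Ift52 fell 1.28-fold from 45.3 ± 2.16 to 35.2 ± 1.66 CPM, but stood at a log2 change of -0.025 and was not called under library-size scaling. Ift88, whose loss prevents cilium formation, rose 1.73-fold, from 3.05, 4.35 and 3.86 CPM to 7.99, 4.98 and 6.59, the aged libraries being widely spread. Reads of the Ift70 copies, whose sequences were not compared here, may be split between them, so the copies are uncertain one by one. Ift70a1 went from 0.887, 1.03 and 1.43 CPM to 3.34, 3.37 and 4.87 (3.46-fold, log2 1.79, SE 0.24), Ift70a2 rose 3.65-fold and Ift70b rose 1.32-fold. Ift56 measured 15.0 ± 0.896 CPM in young and 13.2 ± 0.635 in aged libraries, without a call (edgeR adjusted p = 0.059). It was called lower without young replicate 1 (edgeR adjusted p = 0.033) and stood at a log2 change of 0.15 under library-size scaling.

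Of the 4 peripheral IFT-B genes 1 rose, 1 fell and 2 were not called. Ift80 measured 12.6, 13.1 and 12.2 CPM in young and 26.3, 28.7 and 30.0 in aged libraries, a 2.24-fold rise (log2 1.16, SE 0.08). Ift172, the largest subunit of the peripheral complex, fell 2.40-fold, from 36.3 ± 2.53 to 15.1 ± 1.88 CPM, and Krtcap3 overlaps it. Ift20, which also sorts cargo at the Golgi, was closest to 0, with 26.0, 26.8 and 24.1 CPM in young and 26.0, 26.7 and 27.5 in aged libraries (log2 0.060, SE 0.069, edgeR adjusted p = 0.42), and was called higher under library-size scaling (log2 0.40). Ift57 was at 24.3 ± 1.42 and 21.9 ± 0.657 CPM (edgeR adjusted p = 0.059), was called higher at a log2 change of 0.18 under library-size scaling, and lower at -0.16 with DESeq2 size factors (edgeR adjusted p = 0.049). The peripheral subunits with other symbols, Cluap1 and Traf3ip1, rose 2.32-fold and 1.94-fold. Motor genes were divided as well, with 6 of 9 tested higher and 3 lower, against 44.7% and 41.8% of all tested genes. Kif17, among those that were higher, passed the filter through the aged libraries only. The heavy chain gene of dynein-2, Dync2h1, rose 7.84-fold from 3.53 ± 0.441 to 27.7 ± 2.64 CPM, and the kinesin-2 genes Kif3a, Kif3b and Kifap3 rose 3.39-fold, 1.85-fold and 1.78-fold. Of the smaller dynein-2 chains Dync2i2, Dync2li1 and Dynlt2b fell 3.15-fold, 2.76-fold and 2.38-fold, and Dync2i1 rose 1.85-fold.

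Of the 6 BBSome genes with Bbs symbols 2 rose, 1 fell and 3 were not called, where 44.7% of all tested genes rose and 41.8% fell. Bbs7 had 5.21, 6.62 and 5.15 CPM in young and 20.1, 22.6 and 21.4 in aged libraries, a 3.77-fold rise (log2 1.91, SE 0.11). Bbs1, the subunit that binds the GTPase Arl6 at the membrane, went from 21.7, 20.9 and 23.2 CPM to 7.39, 6.49 and 8.82, a 2.90-fold fall (log2 -1.54, SE 0.10). These 2 subunits, Bbs7 and Bbs1, moved in opposite directions without overlap between the groups. Bbs5, which binds phosphoinositides, rose 1.49-fold, from 3.46, 3.69 and 4.14 CPM to 4.72, 5.37 and 6.72. Bbs2, Bbs4 and Bbs9 were not called and their groups overlapped. Bbs2 held 9.97, 14.0 and 11.8 CPM in young and 11.1, 11.5 and 11.996 in aged libraries (log2 -0.046, SE 0.11, edgeR adjusted p = 0.71), and was called higher at a log2 change of 0.29 under library-size scaling. Bbs4 was at 11.2 ± 0.903 and 10.3 ± 0.974 CPM (edgeR adjusted p = 0.28), and Bbs9 at 15.2 ± 1.18 and 15.7 ± 0.421 CPM (edgeR adjusted p = 0.61). Under library-size scaling Bbs9 was called higher (log2 0.38) and Bbs4 stood at 0.21 without a call. With the subunits named Ttc8 and Bbip1, which rose by 0.58 and 1.49 on the log2 scale, 4 of 8 BBSome genes rose, 1 fell and 3 were not called.

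Both chaperonin-like genes rose. Bbs12 went from 1.39, 1.61 and 1.65 CPM to 10.9, 9.42 and 7.89, a 6.07-fold rise (log2 2.60, SE 0.17), and Bbs10 from 0.970, 1.03 and 0.952 CPM to 4.53, 4.40 and 4.87, a 4.66-fold rise (log2 2.22, SE 0.20). The groups were far apart in both. Mkks, the third protein of that assembly complex, rose 1.72-fold from 20.9 ± 1.28 to 36.0 ± 2.63 CPM. Arl6, the GTPase that recruits the BBSome to membranes, rose 4.30-fold, from 4.67 ± 0.387 to 20.1 ± 0.967 CPM, while its receptor subunit Bbs1 fell as given above. Lztfl1, a regulator of BBSome entry, rose 1.98-fold. All 5 BBSome partners with other symbols were thus called higher, as were 44.7% of all tested genes.

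**Figure D3:**
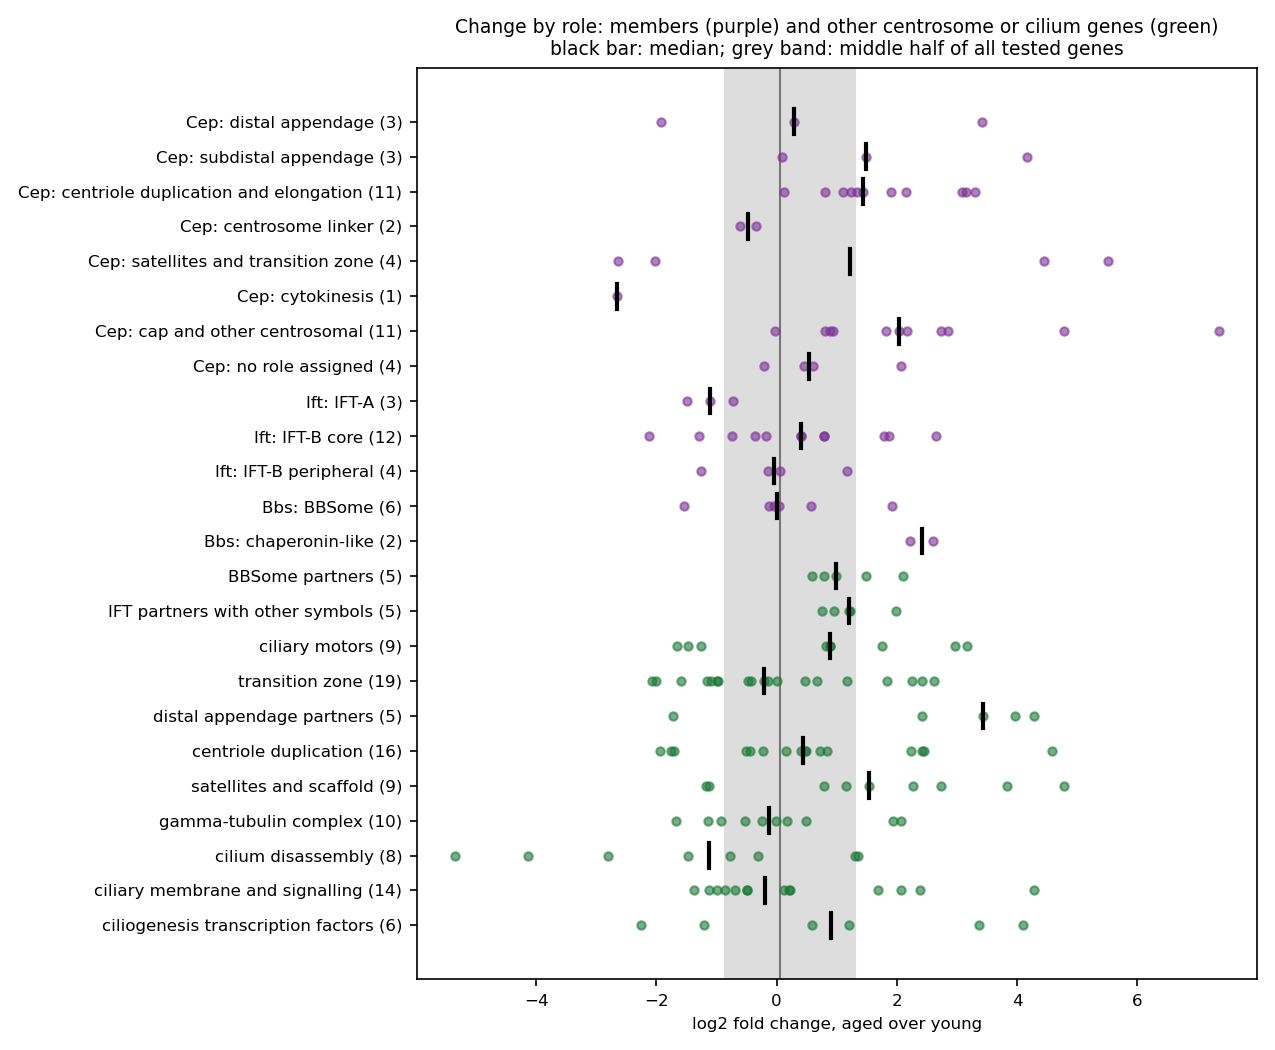
Log2 fold change, aged over young (x axis), of each gene by role, with the number tested in brackets; purple points are the Cep, Ift and Bbs genes, green points other centrosome and cilium genes, black bars medians, and the grey band the middle 50% of all 14273 tested genes. Medians above the band are those of the Cep duplication (1.43), subdistal appendage (1.48) and cap and other (2.04) groups, the chaperonin-like pair (2.41), the distal appendage partners (3.43) and satellites and scaffold (1.53), and below it lie Cep55, the 3 IFT-A genes with Ift symbols (-1.10) and cilium disassembly (-1.13).

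Over the lists of other centrosome and cilium genes together, 58 of 106 tested genes rose, 41 fell and 7 were not called, and the median log2 change was 0.49 (44.7% and 41.8% of all tested genes rose and fell). The centriole duplication list without Cep symbols had 9 of 16 higher and 6 lower. Wdr62, a spindle pole protein, had the smallest p there and fell 3.38-fold, and Poc1a and Cntrob fell 3.84-fold and 3.27-fold. Of 10 genes of the gamma-tubulin complex, which starts microtubules at the centrosome, 3 rose and 5 fell, with Tubgcp2 3.20-fold lower. Among 14 tested genes of the ciliary membrane and its signalling 6 rose and 7 fell (Tub, among the former, passed the filter through the aged libraries only), and the smallest p belonged to the polycystin channel gene Pkd2, which rose 5.20-fold from 163.8 ± 7.80 to 851.5 ± 19.7 CPM. Among the genes of RFX transcription factors and Foxj1, 4 of 6 tested rose and 2 fell (Rfx2 and Rfx5), Foxj1 having passed the filter through the aged libraries only. Rfx7 rose 17.2-fold from 2.28 ± 0.225 to 39.2 ± 1.57 CPM, Rfx2 fell 4.77-fold to 0.398 ± 0.0776 CPM, and Foxj1, the regulator of motile cilia, reached only 0.597 ± 0.112 CPM in aged cells from 0.0555 ± 0.0732 in young ones; without young replicate 1 its log2 change went from 3.37 to 5.17.

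The young libraries were not alike for these genes. Young replicate 2 was the highest of the 3 in 36 of the 66 genes (54.5%), against 37.6% of all tested genes. Among the 41 genes that rose in aged cells it was the highest in 27 (65.9%), with a median ratio of 1.11 to the mean of the other two, and among the 16 that fell it was the highest in 4, with a median ratio of 0.967. The same lean was present across the table, where replicate 2 was the highest young library in 50.7% of genes called higher and 24.9% of genes called lower. The ratio was largest for Cep70 (7.16), Cep83 (1.96) and Cep295 (1.78), and smallest for Cep290 (0.692). The count chi-square per degree of freedom between young libraries was 10.6 and 8.67 for the pairs with replicate 2 and 3.52 for the other pair, against 3.11 to 3.58 among aged libraries. Without young replicate 2 the Cep genes still numbered 29 higher and 7 lower, with a median log2 change of 1.43, the Ift genes 8 and 8, and the Bbs genes 4 and 1. Why this library stood apart was not tested.

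**Figure D4:**
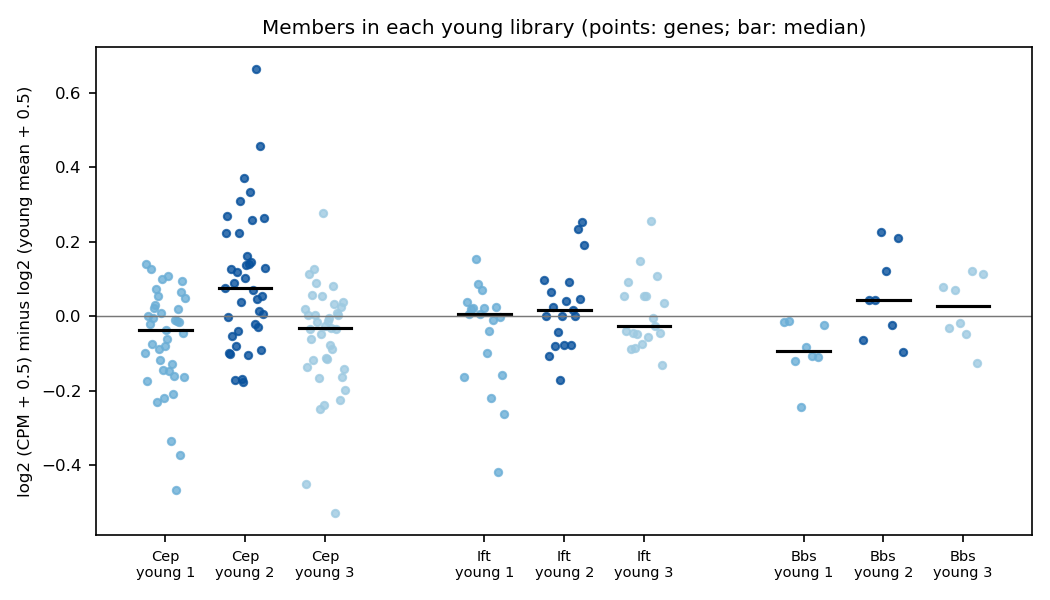
Deviation of each gene from its mean over the young libraries, as log2 of CPM + 0.5 (y axis), for each young library and family; points are genes and bars medians. Cep genes in young replicate 2 have a median of 0.0752 and reach 0.663, while the medians of replicates 1 and 3 are -0.0364 and -0.0313.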

How the data were processed

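The deposited values are unnormalized counts of reads, 1 row a gene symbol and 1 column a library (3 young, 3 aged), with whole numbers and unequal totals. RNA was extracted with TRIzol and made into libraries with a VAHTS kit, per the labels' protocols. Per the submitters' processing notes, the tools used were fastp, HISAT2 and HTSeq (no version given). The build, annotation and strand setting were not given in the sources used here. Columns were matched to samples by library name.

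Counts were filtered with filterByExpr (minimum count 10), scaled by TMM and tested with edgeR 4.0.16 in R 4.3.3 (quasi-likelihood F test, group as the only term, Benjamini-Hochberg over 14273 genes, threshold 0.05). The procedure was tested on simulated data in which few genes changed. Most genes were called here, so that test cannot check the scaling or the error rate in these data. SE is the fitted log2 change divided by the square root of F. CPM is given as mean ± SD. The members, role groups and lists were chosen with earlier results of these data known. Values per library are printed for the 5 largest rises and falls of the Cep genes, the 3 largest of Ift and Bbs genes with a mean of at least 1 CPM, and the gene closest to 0; of other lists the called gene with the smallest p is named; further genes were chosen after their values were seen. All 66 symbols matched RefSeq (GRCr8), used for names, overlapping genes and promoter letters; 31 overlap another RefSeq gene, 12 of them a protein-coding gene of the table. The values of 1 Cep gene are not reported here, although it is included in the counts and medians. Protein lengths, planned as a description, were not used here. Alternatives were DESeq2 1.42.0, its size factors in edgeR, limma-voom 3.58.1, library-size scaling, 2 other filters, a replicate block and leaving out each library.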

Additional observations from a re-analysis of the deposited data

How the results depend on the processing

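Of the 57 called genes among the 66, 53 kept their call and direction in each of the 13 alternatives that gave a value; Cep20, Cep70, Cep250 and Ift52 did not. The scaling mattered most: with library size alone the median log2 change of all tested genes was 0.39, of the Cep genes 1.67, of the Bbs genes 0.64 and of the other centrosome and cilium genes 0.82, all higher than with TMM, while the Ift median turned to 0.18 and the peripheral IFT-B median to 0.29. Under it Bbs2 (0.29), Cep41 (0.31), Ift57 (0.18), Cep20 (0.12), Bbs4 (0.21), Ift56 (0.15) and Mki67 (0.051) changed sign. Of these Bbs2, Cep41 and Ift57 became called higher, as did Bbs9, Cep128, Cep85 and Ift20. The median of all tested genes was 0.30 with no low-count filter, which tests more genes, and 0.023 with a minimum count of 50. Leaving out 1 library at a time moved the Cep median between 1.23 and 1.43, with 28 to 30 genes higher and 6 to 7 lower. Same-numbered libraries did not deviate together (r = -0.0132, 0.00798 and 0.0259 across 14273 genes, which are not independent), and not every library correlated best with its own number, so the numbers were not treated as pairs. With the replicate block, the Cep genes numbered 29 higher and 7 lower, the Ift genes 8 and 8, the Bbs genes 4 and 1, and all genes 6279 and 5883. DESeq2, limma-voom and the replicate block changed no call among the 66. Genes with few young counts, above all Cep126, are limited by depth.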
